A study of Drosophila melanogaster with 10 samples.

Results

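The genes described here are those whose mRNA differed between whole female larvae labelled V966M and whole female larvae labelled V966M/+, 2 groups of *Drosophila melanogaster* in the third instar. The 4 libraries were taken by the strain field of their labels, 2 for each group, out of 10 libraries in all. V966M names an allele of AGO2 with a changed slicing site, and the labels give the second group a wild-type copy (+) beside it. The other 6 libraries, labelled w (the control), 51B (a null allele of AGO2) and 51B/+, entered the fit to estimate the spread, and w is given as a reference level. The age of the larvae in hours and the number in each library were not given in the sources used here. Nothing stated that the 2 libraries of a group came from separate cultures, so p-values measure the spread between these samples, which may be technical.

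AGO2 is the Argonaute protein that is loaded with small interfering RNAs and cleaves their targets, and it is also found on chromatin. A whole larva is mostly body wall muscle, cuticle-secreting epidermis, fat body and gut, and the RNA of these tissues dominates its mRNA. The fat body stores fat and glycogen, detoxifies, and secretes antimicrobial peptides when the Imd or Toll pathway is active. Oenocytes, cells under the epidermis, make very long chain lipids for the cuticle.

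AGO2 (3L, 15554113 to 15561042, dm6) was counted at 236 and 163 CPM (counts per 1e6 reads assigned to genes, scaled by edgeR's TMM factors) in the libraries labelled V966M, with replicate 3 first here and in every pair below. Its level was 249 and 194 CPM in the V966M/+ pair and 229 and 152 CPM in the w pair. The groups overlapped and the difference was not called (log2 fold change -0.15, V966M minus V966M/+, SE 0.27, adjusted p = 0.817). A changed codon need not alter the level of the mRNA, so this does not check the labels. The other allele does bear on them: the libraries labelled 51B/+ had 3.85 and 2.84 CPM of AGO2 against 105 and 99.7 CPM for 51B, which goes against the labels of that pair. Titles of the libraries labelled 51B/+ and V966M/+ name the allele in duplicate, and those of 51B and V966M name it once. Groups are therefore called by their labels throughout, and reading the titles in their place would turn every direction below around.

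Of 13551 genes tested, 908 (6.7%) differed at an adjusted p under 0.1 in edgeR's quasi-likelihood test, 768 (5.67%) higher and 140 (1.03%) lower in the libraries labelled V966M. All 908 had libraries that did not overlap between the groups, as had 49.3% of all genes tested. Among the calls 664 changed by at least 1 on the log2 scale. The median log2 fold change was 1.39 over the higher calls, -1.05 over the lower calls and -0.02 over all genes tested. Against w, the higher calls had a median of 0.49 in the group labelled V966M and of -0.89 in the group labelled V966M/+, and the lower calls had -0.28 and 0.76. These values share the w libraries and the groups compared. Protein coding genes made up 879 of the calls, 338 calls had only a CG number as a symbol, and 12 were not matched to the annotation. Calls lay on all large chromosome arms, from 4.73% higher on 2L to 6.63% higher on 3R, and 1 of 99 genes was called on chromosome 4.

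**Figure D1:**
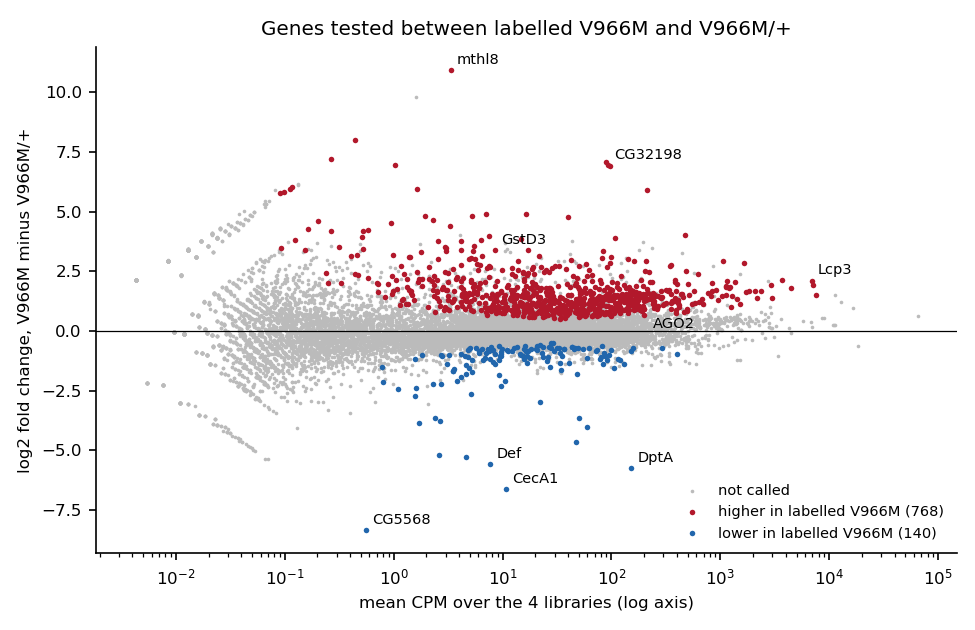
Log2 fold change of each gene tested (y axis, labelled V966M minus labelled V966M/+) against its mean CPM over the 4 libraries (x axis, log scale). Red points are the 768 genes called higher, blue points the 140 called lower and grey points genes not called. Higher calls reach into the most abundant genes, and the largest lower calls include CecA1, DptA and Def.

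Total counts were 60886803 and 25005958 in the libraries labelled V966M and 39831235 and 26129296 in those labelled V966M/+, so replicate 3 was the deeper library of each pair. The number of calls rested on both replicate 4 libraries. Without V966M/+ replicate 4 the fit called 24 genes, without V966M replicate 4 it called 19, and without V966M/+ replicate 3 or V966M replicate 3 it called 920 and 1616. A fit of only the 4 libraries called 17. All 908 genes kept their direction in each of these fits. None of them overlapped between the groups, so leaving out a library could hardly turn a direction, and this is no support for the calls. Within replicate 3 the higher calls had a median log2 difference of 0.86 and the lower calls of -0.77, and within replicate 4 of 1.90 and -1.29.

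Called in the fit of all libraries and in all 4 fits that leave out 1 of them were 11 genes, all higher in the libraries labelled V966M. They were singled out after their values were seen. mthl8 (3L, 22428 to 26308), a receptor of the Methuselah-like family, had 435 and 135 counts in the libraries labelled V966M and 1070 and 423 in the w pair, and no read in either library labelled V966M/+. Against the floor of 3 counts in each library labelled V966M/+ its level was at least 85.7-fold higher (adjusted p = 0.000571). CG31380 (3R, 25787997 to 25789455), a gene known by its number, was at 6.28 and 6.19 CPM against 0.328 and 0.242 CPM (log2 fold change 4.41, SE 0.24, adjusted p = 0.000187) and at 9.11 and 9.07 CPM in w. Both libraries labelled V966M lay close together for it, below w, and the V966M/+ pair lay far under both. The 51B/+ pair was low for CG31380 as well, at 1.69 and 1.71 CPM, with 5.47 and 5.86 CPM in the 51B pair.

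CG32198 (3L, 18526976 to 18527445) was at 152 and 215 CPM in the libraries labelled V966M, 1.94 and 0.970 CPM in those labelled V966M/+ and 231 and 232 CPM in w (log2 fold change 6.96, SE 0.58, adjusted p = 0.00396). GstD3, a glutathione S-transferase in a cluster of close relatives on 3R, stood at 12.7 and 18.5 CPM against 1.86 and 1.09 CPM (log2 fold change 3.38, SE 0.30, adjusted p = 0.00401). Acsx3, an acyl-CoA synthetase, had 1.85 and 1.73 CPM against 0.175 and 0.212 CPM (log2 fold change 3.20, SE 0.31, adjusted p = 0.00533), and Ugt35C1, a UDP-glycosyltransferase, had 4.99 and 7.21 CPM against 1.22 and 0.758 CPM (log2 fold change 2.59, SE 0.30, adjusted p = 0.0153). For each of these 4 genes the w libraries lay near or above the libraries labelled V966M. Among V966M, V966M/+ and w, the libraries labelled V966M/+ were the low ones. CG10814 differed from that order, with 9.08 and 19.2 CPM labelled V966M, 0.918 and 0.849 CPM labelled V966M/+ and 3.49 and 3.33 CPM in w, so that w lay between the groups (log2 fold change 3.98, SE 0.38, adjusted p = 0.00533). The remaining 4 were CG8160, CG9396, CG14893 and CG16985, with log2 fold changes of 1.60, 3.81, 4.54 and 2.0. The 51B/+ pair also lay below the V966M pair for Acsx3 (0.986 and 1.09 CPM) and Ugt35C1 (2.28 and 1.79 CPM). So it did for CG14893 (0.219 and 0.306 CPM) and CG10814 (6.97 and 4.94 CPM). For the other genes of this paragraph it did not, as for CG32198 (593 and 249 CPM) and GstD3 (17.7 and 15.8 CPM).

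**Figure D2:**
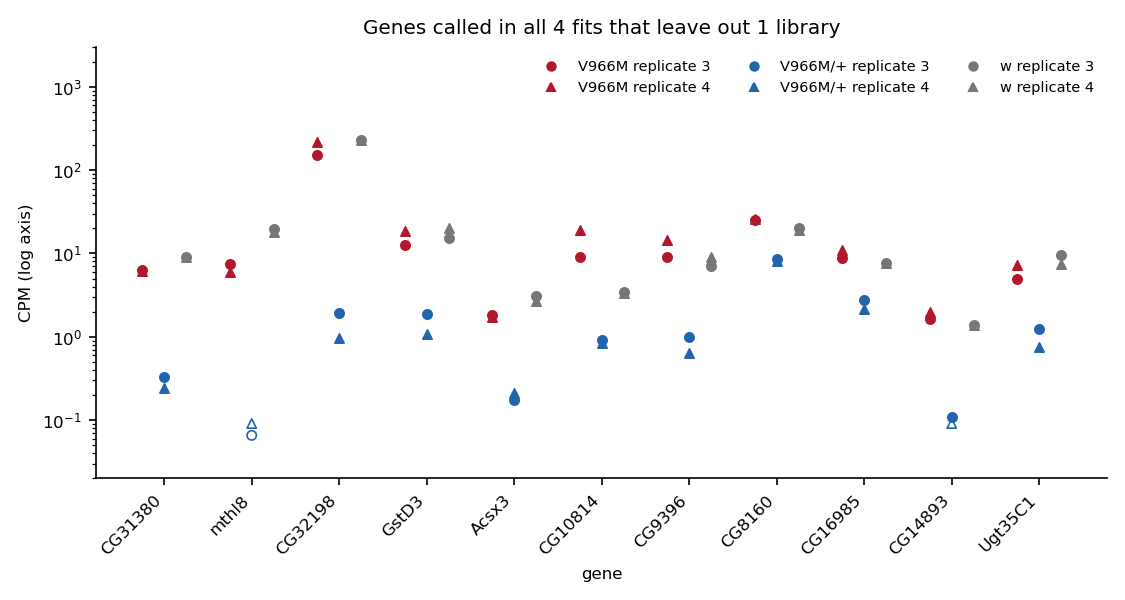
CPM (y axis, log scale) of the 11 genes called in every fit, in the libraries labelled V966M (red), V966M/+ (blue) and w (grey), with circles for replicate 3 and triangles for replicate 4. Open symbols mark libraries with 3 counts or fewer, drawn at the level of 3 counts. For all 11 genes both blue symbols lie below both red symbols, as for every gene called higher.

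The tissues that the libraries hold were read from marker genes, summed in each library. The 4 body wall muscle markers (Mhc, Mlc2, Act57B and TpnC47D) summed to 18706 and 25274 CPM in the libraries labelled V966M, 8410.2 and 2449.9 CPM in those labelled V966M/+ and 12563 and 15363 CPM in w. V966M/+ replicate 4 was the lowest of all 10 libraries and V966M/+ replicate 3 the next, as the libraries labelled 51B and 51B/+ had 16375 to 25348 CPM. In whole larvae fewer cells of a type and less RNA per cell cannot be told apart.

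Epidermal markers had sums of 11851 and 18999 CPM, 6294 and 4894 CPM and 8297 and 12373 CPM for V966M, V966M/+ and w. These sums were nearly all Lcp1 and Lcp3, and the other marker, Cpr65Ec, went the other way, at 2.09 and 1.24 CPM against 3.85 and 4.94 CPM. Haemocyte markers summed to 228 and 189 CPM labelled V966M and 158 and 73.8 CPM labelled V966M/+, but PPO1, the prophenoloxidase of crystal cells, carried that difference, at 106 and 109.6 CPM against 37.3 and 7.94 CPM. Hml had 103 and 62.8 CPM against 99.3 and 50.1 CPM and NimC1 19.8 and 16.9 CPM against 21 and 15.7 CPM, both overlapping between the groups. Fat body markers summed to 40858 and 40223 CPM and 37634 and 36035 CPM, but single markers moved in opposite ways. Lsp1beta, a larval serum protein, was at 20412 and 22819 CPM against 14255 and 8191 CPM, while Fbp1, a receptor for such storage proteins, was at 15062 and 13671 CPM against 18674 and 25644 CPM. Imaginal disc markers were lower in the libraries labelled V966M, at 61.4 and 45 CPM against 80.3 and 72.6 CPM. Sums of the salivary gland markers overlapped between the groups (8636 and 7887 CPM and 8313 and 8896 CPM), as did those of the midgut markers. The midgut sums were mostly Jon65Aiv, which overlapped, as did Mal-A1 and Amy-p. The other midgut marker, alphaTry, was lower in the libraries labelled V966M, at 49.2 and 44.2 CPM against 79.7 and 94 CPM. Ovary and testis markers summed to at most 4.33 CPM in all 4 libraries. Of the male markers, the Y-linked genes kl-3 and kl-5 had no read in any of them, but the roX RNAs had reads in all 4. lncRNA:roX1 was at 27.5 and 10.5 CPM labelled V966M and 33.7 and 14.6 CPM labelled V966M/+. lncRNA:roX2 had 14 and 3 counts labelled V966M and 10 and 9 counts labelled V966M/+. The part of these tissue sums in the gene differences below was not tested.

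Most muscle contractile genes were called higher in the libraries labelled V966M. Of 35 tested (36 in the table), 19 were called, all higher, beside 5.67% of all genes, and their median log2 fold change was 1.64 against -0.02 over all genes. Summed over the list, the level was 50083 and 67867 CPM labelled V966M, 25602 and 11404 CPM labelled V966M/+ and 36116 and 43965 CPM in w. The calls covered thick filaments, thin filaments and Z discs. Mlc2, the regulatory light chain of muscle myosin, was at 4608 and 7421 CPM against 2087 and 617 CPM (log2 fold change 2.15, SE 0.54, adjusted p = 0.0709). Mlc1, the essential light chain, was at 1543 and 2197 CPM against 678 and 203 CPM (log2 fold change 2.09, SE 0.50, adjusted p = 0.0629). Both genes were lowest in V966M/+ replicate 4.

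TpnC47D, a troponin C that binds calcium on the thin filament, had 276 and 484 CPM against 143 and 39.6 CPM (log2 fold change 2.05, SE 0.56, adjusted p = 0.0925), and Mlp60A, a muscle LIM protein, had 318 and 871 CPM against 133 and 49.9 CPM (log2 fold change 2.70, SE 0.70, adjusted p = 0.0795). Also called were Act57B, the main larval muscle actin, the troponin genes up and wupA, the tropomyosin genes Tm1 and Tm2, Actn (alpha-actinin of the Z disc) and SERCA, the calcium pump of the sarcoplasmic reticulum, with log2 fold changes from 1.64 to 1.92. Mhc, the muscle myosin heavy chain, was at 4375 and 4599.8 CPM against 1781 and 301 CPM and missed the threshold (log2 fold change 2.11, SE 0.65, adjusted p = 0.121). Against w the list had a median of 0.54 in the group labelled V966M and of -1.08 in the group labelled V966M/+. The fits without V966M/+ replicate 4 and without V966M replicate 4 called 0 and 0 members of the list.

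**Figure D3:**
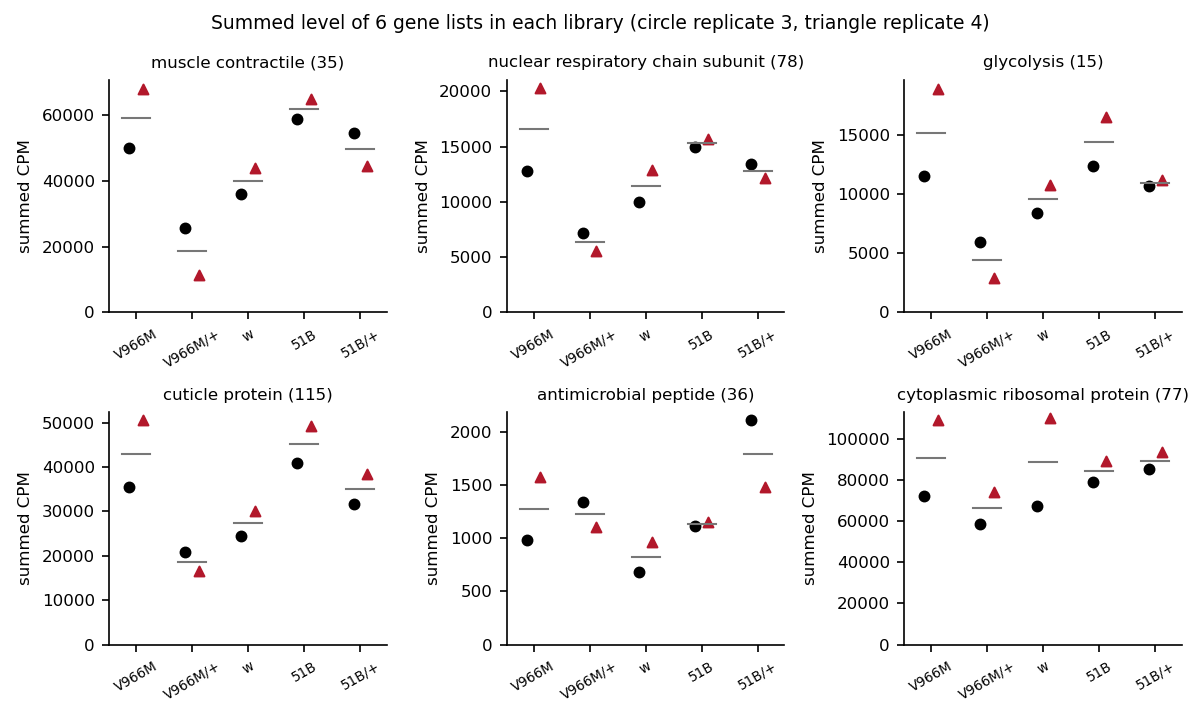
Summed CPM (y axis, from 0) of 6 gene lists in each of the 10 libraries, grouped by strain label, with circles for replicate 3, triangles for replicate 4 and a line at the mean of the pair; the number of genes summed stands in each title. The libraries labelled V966M/+ are the lowest pair for muscle contractile, respiratory chain, glycolysis and cuticle genes, while the antimicrobial peptide sums of the V966M and V966M/+ pairs overlap. A single gene called higher, IM33, made up most of the antimicrobial peptide sum in the libraries labelled V966M.

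Nuclear genes for subunits of the respiratory chain had the most calls of any list. Of 78 tested (84 in the table), 58 (74.4%, beside 5.67% of all genes) were called, all higher in the libraries labelled V966M. The median over the list was 1.34 (0.52 in V966M and -0.81 in V966M/+ against w). The summed level was 12815 and 20281 CPM against 7135 and 5523 CPM. Subunits of complexes I to V were among the calls. Cyt-c1, the cytochrome c1 of complex III, had 238 and 411 CPM against 118 and 75.9 CPM (log2 fold change 1.74, SE 0.31, adjusted p = 0.0378), and sun, the epsilon subunit of ATP synthase, had 147 and 316 CPM against 76.9 and 63.5 CPM (log2 fold change 1.72, SE 0.40, adjusted p = 0.0609). ND-B14.5B, a subunit of complex I, had 74.4 and 185 CPM against 39.8 and 39.5 CPM (log2 fold change 1.71, SE 0.43, adjusted p = 0.0768). The groups did not overlap for any of these 3 genes, as for every call, and V966M replicate 4 was the highest library of the 4 for each.

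Exons of 28 of the 58 called subunit genes overlapped an exon of another gene, 24 of them on the opposite strand, and reads were counted without regard to strand. All 28 genes tested on the mitochondrial genome had a positive fold change, with a median of 0.78, but only mt:ND3 was called (126 and 139 CPM against 84.1 and 46.1 CPM, log2 fold change 1.02, SE 0.27, adjusted p = 0.0803). Of 72 mitochondrial ribosomal protein genes, a list made after the calls were seen, 4 (5.56%) were called higher, near the 5.67% of all genes, and the median was 0.59. Neither the fit without V966M/+ replicate 4 nor that without V966M replicate 4 called a respiratory chain gene.

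Enzymes that feed the respiratory chain were read from lists made after the calls were seen, so their counts describe the calls and support nothing. Of all genes, 5.67% were called higher. All 13 called genes of 15 in glycolysis and the glycerol phosphate shuttle were higher in the libraries labelled V966M (median of the list 1.78). Eno, the enolase, had 1550.2 and 2859 CPM against 719.6 and 348 CPM (log2 fold change 2.05, SE 0.43, adjusted p = 0.0487). Ldh, which makes lactate from pyruvate, had 461 and 789 CPM against 229.8 and 58.6 CPM (log2 fold change 2.12, SE 0.56, adjusted p = 0.0827), and Gpo1, the mitochondrial glycerol phosphate dehydrogenase, had 85.2 and 252 CPM against 30.6 and 16.8 CPM (log2 fold change 2.83, SE 0.53, adjusted p = 0.0401). All 3 were lowest in V966M/+ replicate 4 and highest in V966M replicate 4. Among 16 genes of the citric acid cycle and pyruvate entry, 11 were higher (median 1.29), including kdn, the citrate synthase, at 575 and 686 CPM against 231 and 94.6 CPM (log2 fold change 1.96, SE 0.37, adjusted p = 0.0401).

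The pentose phosphate pathway had 4 of 8 genes called higher (50%, beside 5.67% of all genes). Glycogen and trehalose metabolism had 6 of 10 (60%) and amino acid catabolism 19 of 27 (70.4%). Their medians were 1.20, 1.05 and 1.12. These lists and that of the mitochondrial carriers were also made after the calls were seen, so their counts support nothing. Glys, the glycogen synthase, stood at 208 and 296 CPM against 127 and 61.3 CPM (log2 fold change 1.42, SE 0.33, adjusted p = 0.0599). Got2, a mitochondrial aspartate aminotransferase, stood at 385 and 648 CPM against 188 and 127 CPM (log2 fold change 1.71, SE 0.30, adjusted p = 0.0364). Of 20 mitochondrial carriers 7 were higher (35%, beside 5.67% of all genes). Among them was sesB, the ATP/ADP carrier, with 1356 and 1969 CPM against 688 and 495 CPM (log2 fold change 1.49, SE 0.30, adjusted p = 0.0435). sesB shares exon sequence with its neighbour Ant2, so its level rests on the rest of the gene. With either replicate 4 library left out, no gene of the glycolysis, citric acid cycle or amino acid lists was called.

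**Figure D4:**
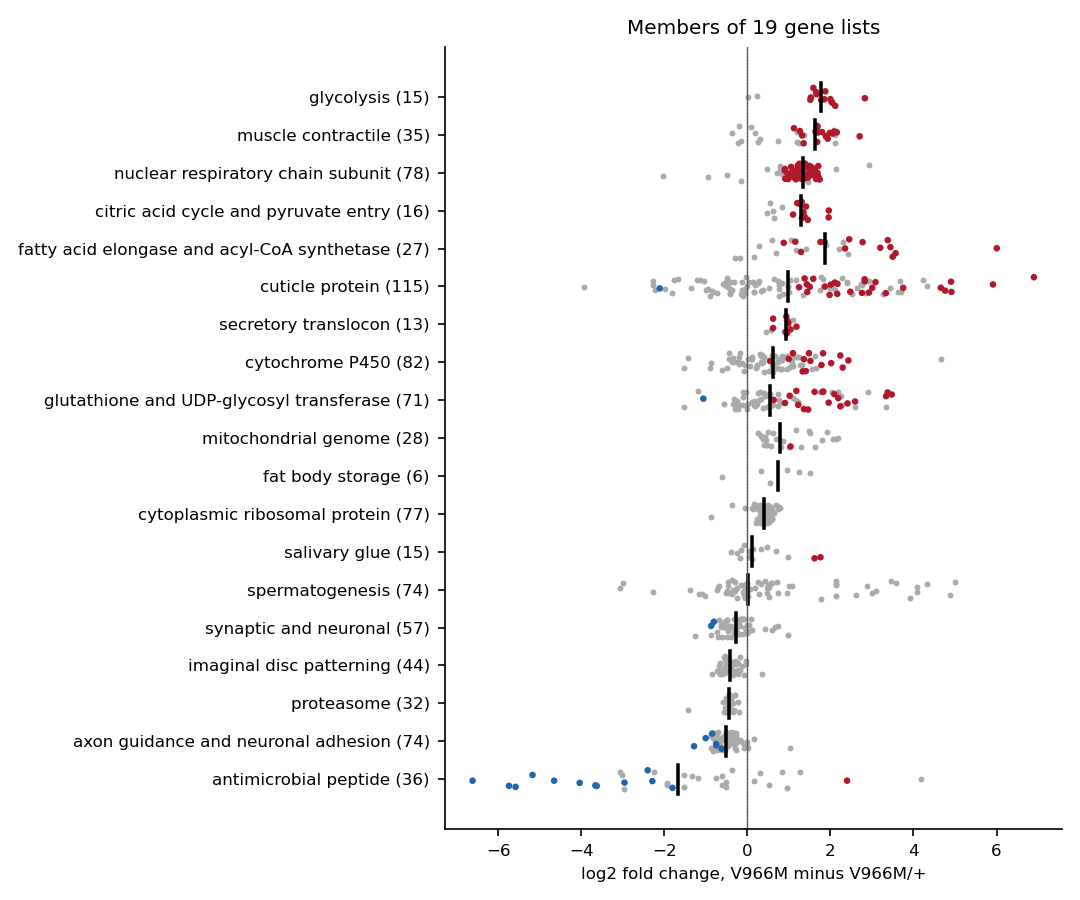
Log2 fold change (x axis, labelled V966M minus labelled V966M/+) of each tested member of 19 gene lists, with the number tested in brackets. Red points were called higher, blue points lower and grey points were not called; the black bar is the median of the list, the dotted line 0 and the thin grey line the median of all genes. Glycolysis, muscle and respiratory chain medians lie between 1.34 and 1.78, and that of the antimicrobial peptides at -1.67.

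Cuticle protein genes are expressed by epidermal cells before each moult and through larval growth. Of 115 tested (131 in the table), 27 were called higher (23.5%, beside 5.67% of all genes) and 1 lower in the libraries labelled V966M, while the others did not pass, with a median of 0.99 (0.76 with genes near 0 set to their bound). The summed level was 35461 and 50663 CPM against 20757 and 16479 CPM. The largest difference was in Cpr67Fa1 (3L, 10889990 to 10890700), at 82.1 and 299 CPM against 2.08 and 1.06 CPM and 96.5 and 148 CPM in w (log2 fold change 6.90, SE 0.77, adjusted p = 0.0155). Its close copy Cpr67Fa2 had 44.5 and 109 CPM against 4.13 and 1.45 CPM (log2 fold change 4.76, SE 0.62, adjusted p = 0.0312), and reads that fit both copies equally are left out under the default counting settings, which the stated parameters did not change. For Cpr67Fa1 the libraries labelled V966M lay on either side of the w libraries. For Cpr67Fa2, at 42.5 and 50.7 CPM in w, V966M replicate 3 lay between the w libraries and V966M replicate 4 above them. For both copies the libraries labelled V966M/+ lay far below w.

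Cpr47Eg was at 82.9 and 745 CPM against 12.4 and 1.24 CPM (log2 fold change 5.91, SE 1.44, adjusted p = 0.0771), with the replicates of each group far apart. Lcp65Ag1 and Lcp65Ae, of the Lcp65A cluster of near-identical larval cuticle genes on 3L, had 5.17 and 21.9 CPM against 0.655 and 0.182 CPM and 14.5 and 49.5 CPM against 1.90 and 0.121 CPM, and their fold changes rest on the reads that could be placed uniquely. The abundant larval cuticle genes had smaller fold changes. Lcp3 was at 7675 and 14648 CPM against 3285 and 1909 CPM (log2 fold change 2.10, SE 0.47, adjusted p = 0.0532) and Lcp4 at 8644 and 13597 CPM against 4528 and 3327 CPM (log2 fold change 1.5, SE 0.39, adjusted p = 0.0784). TwdlT, of the Tweedle family of cuticle proteins, was the 1 member called lower, at 1.73 and 1.06 CPM against 8.06 and 4.27 CPM (log2 fold change -2.11, SE 0.47, adjusted p = 0.0547). Leaving out V966M/+ replicate 4 or V966M replicate 4 took the calls in this list to 0 and 1.

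Of 47 genes for chitin binding proteins, mucins and chitinases, 9 were higher (19.1%, beside 5.67% of all genes) and 2 lower (4.26%, beside 1.03%). obst-E, which helps shape the larval cuticle, had 174 and 332 CPM against 47.1 and 15.8 CPM (log2 fold change 3.01, SE 0.50, adjusted p = 0.0364), and the chitin deacetylase genes verm, serp and Cda4 had log2 fold changes of 1.26, 1.13 and 1.47. The members called lower were Mur29B, a mucin-related gene, and obst-G, with -1.20 and -0.93. The median of this list was 0.29 and turned to -0.07 when counts were scaled by library totals alone, a scaling that moved the median of all genes by -0.37. Basement membrane genes had 5 of 15 called, all higher (33.3%, beside 5.67% of all genes). The calls included both collagen IV chains, Col4a1 at 630.2 and 879.8 CPM against 376 and 314 CPM (log2 fold change 1.13, SE 0.25, adjusted p = 0.0547) and vkg at 286 and 408 CPM against 164 and 128 CPM (log2 fold change 1.25, SE 0.24, adjusted p = 0.0404). SPARC, which binds collagen IV, and Plod, which hydroxylates its lysines, were also called, as was Tig (Tiggrin, a ligand of integrins), and the median of the list, 0.32, likewise turned to -0.04 under library totals. No member of either list was called without V966M/+ replicate 4 or without V966M replicate 4.

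Genes of the secretory translocon, a list made after the calls were seen, had 9 of 13 called higher (69.2%, beside 5.67% of all genes), with a median of 0.94. Sec61beta, a subunit of the channel through which secreted proteins enter the endoplasmic reticulum, was at 300.4 and 377 CPM against 167 and 132 CPM (log2 fold change 1.18, SE 0.22, adjusted p = 0.0385). Log2 fold changes of the calls ran from 0.62 to 1.18. No member was called without V966M/+ replicate 4 or without V966M replicate 4, and scaling by library totals called 3. NimB2, a secreted Nimrod protein, was the 1 call among 24 haemocyte and melanization genes (4.17%, no more than the share of all genes called higher), at 182 and 318 CPM against 104 and 101 CPM (log2 fold change 1.29, SE 0.30, adjusted p = 0.0571).

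In a list of elongases, acyl-CoA synthetases and fatty acid synthases made after the calls were seen, 14 of 27 were called, all higher (51.9%, beside 5.67% of all genes). The median was 1.86. FASN2, a fatty acid synthase of oenocytes, had 22.9 and 29.3 CPM against 6.64 and 2.82 CPM (log2 fold change 2.45, SE 0.42, adjusted p = 0.0378). ACC, which makes malonyl-CoA, had 77.3 and 206 CPM against 49.9 and 28 CPM (log2 fold change 1.86, SE 0.46, adjusted p = 0.0698), and bgm, a very long chain acyl-CoA synthetase, had 75.8 and 145 CPM against 30.1 and 13 CPM (log2 fold change 2.35, SE 0.43, adjusted p = 0.0391). Cyp4g1, the oenocyte cytochrome P450 of cuticular hydrocarbon synthesis, was at 189.6 and 140.4 CPM against 76 and 39.3 CPM (log2 fold change 1.52, SE 0.33, adjusted p = 0.050). For these 4 genes V966M/+ replicate 4 was the lowest library. Over the wider list of lipid metabolism genes 8 of 36 (22.2%) were higher, with a median of 0.42. Leaving out either replicate 4 library took the calls to 2 of the 27 elongase and synthetase genes and to 0 of the lipid metabolism genes.

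Most called detoxifying enzymes were also higher. Cytochrome P450 genes had 14 of 82 called, all higher (17.1%, beside 5.67% of all genes), with a median of 0.61. Glutathione S-transferase and UDP-glycosyltransferase genes had 19 of 71 higher (26.8%) and 1 lower (1.41%, near the 1.03% of all genes), with a median of 0.55. Cyp6a8 was at 24 and 33.3 CPM labelled V966M, 8.22 and 2.30 CPM labelled V966M/+ and 35.3 and 33.2 CPM in w (log2 fold change 2.43, SE 0.50, adjusted p = 0.0476). Cyp6a17 was at 19.6 and 23.1 CPM against 6.29 and 5.76 CPM, with 39.4 and 27.5 CPM in w (log2 fold change 1.82, SE 0.27, adjusted p = 0.0345). For Cyp6a8 and Cyp6a17 the w libraries were near or above those labelled V966M. GstD1, the most abundant of the called transferases, had 915 and 1472 CPM against 472 and 394 CPM (log2 fold change 1.46, SE 0.30, adjusted p = 0.0449), and its neighbours GstD2, GstD3, GstD4 and GstD9 were called too, with 1.83, 3.38, 3.48 and 1.36, each from the reads that could be placed on 1 gene only. When V966M/+ replicate 4 or V966M replicate 4 was left out, 3 and 2 transferases and no cytochrome P450 gene were called.

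Antimicrobial peptide genes were the main group lower in the libraries labelled V966M. Of 36 tested (39 in the table), 12 were called lower, beside 1.03% of all genes, and 1 higher, with a median of -1.67 (-1.53 with genes near 0 set to their bound). CecA1, a cecropin (3R, 30210874 to 30211273), was at 0.257 and 0.133 CPM against 30.7 and 12 CPM, and at 0.730 and 0.211 CPM in w (log2 fold change -6.62, SE 1.1, adjusted p = 0.0378). DptA, a diptericin and a target of the Imd pathway, was at 8.38 and 2.52 CPM against 364 and 235 CPM, and at 8.47 and 1.77 CPM in w (log2 fold change -5.74, SE 1.34, adjusted p = 0.0699). Def, the defensin, was at 0.205 and 0.487 CPM against 20.2 and 9.82 CPM, and at 0.383 and 0.590 CPM in w (log2 fold change -5.59, SE 0.78, adjusted p = 0.0330). In all 3 genes the libraries labelled V966M lay near those of w, and both libraries labelled V966M/+ stood apart above them.

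DptB had 3.59 and 3.58 CPM against 113 and 67.9 CPM (log2 fold change -4.66, SE 1.13, adjusted p = 0.0768), CecC had 3.30 and 10.7 CPM against 110.1 and 117 CPM (log2 fold change -4.04, SE 0.73, adjusted p = 0.0405) and AttD, an attacin, had 4.50 and 10.8 CPM against 123 and 64.2 CPM (log2 fold change -3.63, SE 0.87, adjusted p = 0.0748). These were highest in V966M/+ replicate 3 or about equal in its 2 libraries. Drs, the antifungal drosomycin and a target of the Toll pathway, was highest in V966M/+ replicate 4, at 6.48 and 3.41 CPM against 16.3 and 62.2 CPM (log2 fold change -2.96, SE 0.79, adjusted p = 0.0948). Mtk, the antifungal metchnikowin, had 4.86 and 1.46 CPM against 13.2 and 19 CPM (log2 fold change -2.29, SE 0.62, adjusted p = 0.0927). CecA2, AttB, edin and Dso1 were also called lower, from -5.18 to -1.81. The 1 call in the other direction was IM33, an immune-induced peptide gene, at 707 and 1401 CPM against 309.8 and 89.7 CPM (log2 fold change 2.40, SE 0.62, adjusted p = 0.0793). The summed level of the whole list overlapped between the groups, at 987 and 1575 CPM against 1347 and 1107 CPM. IM33 made up most of that sum in both libraries labelled V966M and a small part of it in those labelled V966M/+. The sum therefore does not describe the other peptide genes.

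Against w, the 36 genes had a median of 0.16 in the group labelled V966M and of 1.66 in the group labelled V966M/+. Of 13 peptidoglycan recognition protein genes 1 was called (7.69%, beside 1.03% of all genes called lower). In this list 5 genes had positive fold changes of up to 1.17, and the summed level overlapped, at 429 and 420.2 CPM against 339 and 458 CPM. The call was PGRP-LC, the membrane receptor for peptidoglycan upstream of Imd, lower at 35.4 and 31.9 CPM against 55.2 and 52.6 CPM (log2 fold change -0.68, SE 0.19, adjusted p = 0.0958). LysP, a lysozyme gene in a cluster of similar copies, was at 15.3 and 18.3 CPM against 33.8 and 37.9 CPM, with 0.621 and 0.759 CPM in w, so both groups stood above w (log2 fold change -1.10, SE 0.19, adjusted p = 0.0364). The fit without V966M/+ replicate 4 called 3 antimicrobial peptide genes and that without V966M replicate 4 called 0.

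**Figure D5:**
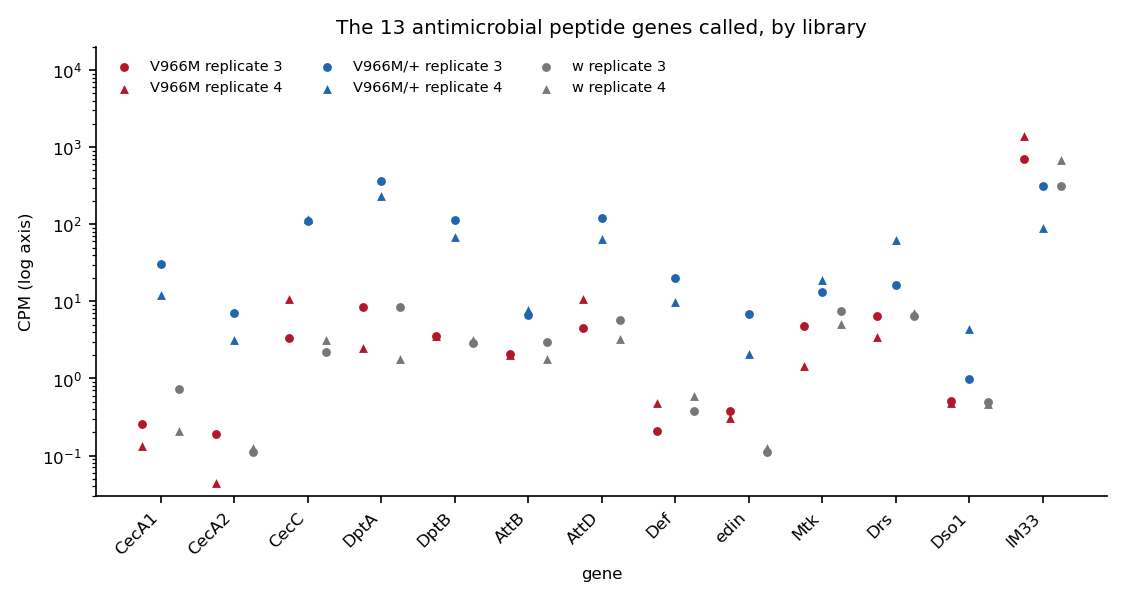
CPM (y axis, log scale) of the 13 antimicrobial peptide genes called, in the libraries labelled V966M (red), V966M/+ (blue) and w (grey), with circles for replicate 3 and triangles for replicate 4. For 12 genes both blue symbols lie above both red symbols, and for IM33 both lie below, as no called gene overlapped between these groups.

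Of 74 genes for axon guidance and neuronal adhesion, 6 (8.11%, beside 1.03% of all genes) were called, all lower in the libraries labelled V966M and by amounts smaller than those of the antimicrobial peptides, and the median was -0.51. The 4 nervous system markers (elav, nSyb, brp and Syt1) summed to 312 and 314 CPM against 341 and 374 CPM, of which nSyb and brp were lower in both libraries labelled V966M and elav and Syt1 overlapped, and their part in these differences was not tested. side-VI, of the Sidestep family of receptors for Beaten path proteins, was at 5.15 and 4.29 CPM against 11.6 and 11.6 CPM, with 3.54 and 3.37 CPM in w (log2 fold change -1.29, SE 0.18, adjusted p = 0.0312). side-V was at 14.5 and 9.60 CPM against 21.8 and 21.7 CPM (log2 fold change -0.85, SE 0.22, adjusted p = 0.0735), and unc-5, a netrin receptor, at 17.7 and 15.1 CPM against 23.8 and 26.8 CPM (log2 fold change -0.62, SE 0.17, adjusted p = 0.0893). In each of these genes the libraries labelled V966M/+ were nearly equal. They lay above both libraries labelled V966M, as in every lower call. A list of the Sidestep and Beaten path families made after the calls were seen had 4 of 21 called lower (median -0.65).

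Among 57 synaptic and neuronal genes, Vmat, the vesicular monoamine transporter, and Dscam2, a homophilic adhesion receptor, were called lower (-0.87 and -0.81, 3.51% of the list beside 1.03% of all genes), and the median was -0.27. Of 18 Enhancer of split and Notch target genes, 2 (11.1%) were lower, E(spl)m7-HLH and E(spl)malpha-BFM, with -0.80 and -0.79. Other lists had single lower calls, beside the 1.03% of all genes. Among these, vri, a clock repressor (-0.80), was the 1 call of 12 clock genes (8.33%). Sdr, a secreted protein that binds insulin-like peptides (-1.22), was that of 28 insulin signalling and nutrient response genes (3.57%). Sb, the Stubble protease of disc eversion (-1.15), was that of 25 ecdysone response genes (4%). Hsc70-2, a heat shock cognate (-1.18), was that of 27 heat shock and chaperone genes (3.7%). Hsc70-2 was at 7.95 and 11.5 CPM against 17.5 and 26.5 CPM with 1.57 and 1.35 CPM in w, so both groups exceeded w. No axon guidance, synaptic or Enhancer of split gene was called without V966M/+ replicate 4 or without V966M replicate 4.

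Some calls were of genes nearly without reads in 1 group. CG5568 (3L, 5871501 to 5873518) had 0 and 0 counts in the libraries labelled V966M and 68 and 25 in those labelled V966M/+, at least 12.2-fold lower against a floor of 3 counts per library, and no read in w. In the other direction alpha-Est4aPsi, an esterase pseudogene on 3R, had 44 and 23 counts against 0 and 0, at least 11.3-fold higher. Cnx14D, a calnexin gene on the X, had 62 and 69 counts against 0 and 1, and w had 120 and 73. The gene white (symbol w), an eye pigment transporter whose symbol is also the label of the control strain, had 37 and 36 counts labelled V966M, 1 and 3 labelled V966M/+ and 4 and 0 in the libraries labelled w. For this gene the libraries labelled V966M/+ and w were both near 0.

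Of the largest single differences that belong to no list, CG17105 was at 308 and 47.7 CPM against 1.25 and 1.39 CPM and 748 and 456 CPM in w (log2 fold change 7.08, SE 1.22, adjusted p = 0.0385), lectin-22C, a C-type lectin, at 27.4 and 28 CPM against 3.50 and 0.212 CPM (log2 fold change 3.85, SE 0.84, adjusted p = 0.0605) and Acbp5, an acyl-CoA binding protein, at 70.4 and 336 CPM against 19.4 and 7.61 CPM (log2 fold change 3.91, SE 0.86, adjusted p = 0.0607). The V966M replicates of CG17105 and Acbp5 were far apart. On the lower side CG1113 was at 1.25 and 1.59 CPM against 5.0 and 12.7 CPM (log2 fold change -2.65, SE 0.42, adjusted p = 0.0364) and CG14963 at 4.48 and 3.45 CPM against 11.7 and 22.1 CPM (log2 fold change -2.08, SE 0.34, adjusted p = 0.0364). Yp3, a yolk protein gene, was the 1 call in a list of 21 genes named for the female germline (4.76%, beside 5.67% of all genes). Its place in that list does not make its reads germline ones. Yp3 was at 107 and 199.7 CPM against 24 and 5.55 CPM, with 37.9 and 33.7 CPM in w (log2 fold change 3.37, SE 0.73, adjusted p = 0.0580). The only run of at least 4 neighbouring calls was CG5885, CG4598, CG4594 and CG4592 (2L, 9917221 to 9922860), all higher.

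Of 65 lists with members tested, 19 had no call in edgeR's quasi-likelihood test. Cytoplasmic ribosomal protein genes (77 tested) had a median of 0.40, with 2 higher and 0 lower at an unadjusted p under 0.05 and 4 called by DESeq2. Imaginal disc patterning genes (44) had a median of -0.42, with 0 higher and 18 lower and 6 by DESeq2, and proteasome genes (32) had -0.43, with 0 higher and 8 lower and 3 by DESeq2. The storage proteins of the fat body (6 genes) had a median of 0.75, with 3 higher and 0 lower and 4 by DESeq2. Lsp1alpha, a larval serum protein, was at 16413 and 16991 CPM against 8595 and 3092 CPM and missed the threshold (log2 fold change 1.52, SE 0.46, adjusted p = 0.117). Spermatogenesis genes (74 of 89 in the table had enough counts) had a median of 0.00, with 0 higher and 1 lower and 0 by DESeq2. Most of these 74 were near absent: 41 had 3 counts or fewer in both libraries of a group, and only 5 reached a mean of 5 CPM. Their median and lack of calls therefore say little. In the small interfering RNA and microRNA machinery (20 genes) the median was -0.11, with 2 higher and 0 lower and 2 by DESeq2. The edgeR exact test called 2 storage protein genes, 1 spermatogenesis gene and none in the other 4 of these lists. A p that misses the threshold does not show that these genes were equal in the groups.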

How the data were processed

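Whole female larvae were measured by mRNA-seq in 10 libraries, 2 for each of 5 strains. The paper names both polyA purification and depletion of ribosomal RNA before library preparation. The authors deposited raw counts of reads per gene in 1 table. Per the methods and the submitters' processing notes, single-end reads of 50 bases were trimmed with cutadapt 1.10, aligned to dm6 (FlyBase release 6.11) with HISAT2 2.0.4 and counted over exons without regard to strand with featureCounts 1.5.0-p3, so reads from a gene and from its antisense partner cannot be told apart. The stated featureCounts parameters set no option for reads that fit several places or several genes, and by default these are not counted, which lowers the level of near-identical copies and overlapping genes. Of the 908 called genes, 232 share exon sequence with a gene on the opposite strand and 40 with one on the same strand.

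Gene IDs were matched to the Ensembl annotation (release 115) of the same assembly, which gave coordinates for 98.9% of 17402 genes, and 12 called genes without a match are not named. Genes with at least 10 counts over the 10 libraries were fitted with edgeR 4.0.16 (R 4.3.3): TMM scaling, glmQLFit with robust estimation, strain as the only factor, glmQLFTest for V966M minus V966M/+, and Benjamini-Hochberg adjustment over 13551 genes with a threshold of 0.1. The SE is the absolute log2 fold change divided by the square root of F. CPM values are scaled by TMM. With 2 libraries a group, an exact permutation test of a single gene cannot go below p = 0.333 (two-sided) and was not used. The fit was also run on simulated counts of independent libraries, with as many genes raised as lowered. That setting holds neither the one-sided calls nor the dependence on single libraries seen here, so it does not test them.

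Total counts ranged from 22337432 to 60886803, and 3 counts correspond to 0.0513 to 0.133 CPM in the 4 libraries. The counts of the 2 libraries of a group differed by more than sampling noise (chi-square per degree of freedom 182 in both groups), so none was counted as a copy of another. Genes and lists were chosen with earlier results of these data known. Of 66 lists, 54 were written with the design and 12 after the calls were seen. The genes named by rule are AGO2, up to 12 called genes in each direction and up to 4 in each of the 54 lists with the largest absolute log2 fold change, provided that their mean over the 4 libraries reached 5 CPM and the groups did not overlap. Others in the text were chosen after their values were seen: those of the 12 lists, genes below 5 CPM, the members further named as called or not called within a list, and the 11 genes called in every fit. Alternatives covered DESeq2 1.42.0, the edgeR exact test, scaling, filters, thresholds, a replicate block and each library left out.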

Additional observations from a re-analysis of the deposited data

How the results depend on the processing

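The number of calls depended strongly on the fit. No called gene changed direction in any alternative in which it was fitted, which follows largely from the lack of overlap between the groups in every call. DESeq2 called 1686 genes (1268 higher, 418 lower), a fit of only the 4 libraries 17 (12 and 5), and a fit with the replicate number as a block 1800 (1303 and 497). Scaling by total counts called 2818 genes, 2194 of them lower, so that 22.1% of calls were higher in place of 84.6%. An adjusted p under 0.05 left 312 (280 and 32), and a change of at least 1 left 73 lower calls. Leaving out 1 library gave 19 to 1616 calls, 17 to 1068 higher and 2 to 548 lower; of the 908 genes, 535 were called in 2 of these 4 fits, 11 in all and 35 in none. RLE or upper-quartile scaling, other count filters, leaving out mitochondrial genes and the exact test (1072) kept the count within 1.5 times. AGO2, not called, ranged from -0.444 to 0.0904 when 1 library was left out, turning to 0.0282 without V966M/+ replicate 3 and to 0.0904 without V966M replicate 4. The labels do not say that a replicate number marks a shared batch, and deviations of same-numbered libraries correlated at 0.0639 between the V966M and V966M/+ groups over 8005 genes. Over all 10 strain pairs the correlation ran from -0.02 to 0.67 and exceeded 0.1 in 7, and each of the 5 strains had more counts in replicate 3. A factor shared by same-numbered libraries of some strains was not tested, and the block was not taken as the design because the correlation was not over 0.1 in every pair. The cause of the change in calls under these settings was not tested. Depth limits genes near 3 counts. Named genes with 3 counts or fewer in both libraries of a group are given by counts or bounds. Some other fold changes rest on few counts in a library, such as those of CecA1 and CG14893.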

Other observations

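Some smaller groups not described above also held calls. Of 21 eye pigment genes 4 were higher in the libraries labelled V966M (19%, beside 5.67% of all genes), and the median of the list was 0.03. These 4 were the white gene given above, v (the tryptophan oxygenase Vermilion), st (the partner transporter of White) and pr (an enzyme of pteridine synthesis). Log2 fold changes were 1.15, 1.54 and 1.18 for the last 3. pr was at 66 and 69.2 CPM against 37.6 and 22.2 CPM, with 73.7 and 66 CPM in w, so that the V966M/+ pair was the low one, whereas white was near 0 in both V966M/+ and w. Obp83g, an odorant binding protein gene, was at 21.1 and 45.1 CPM against 8.19 and 1.91 CPM (log2 fold change 2.69, SE 0.61, adjusted p = 0.0625), and it and Obp99a were the calls among 36 genes of that family (5.56%, near the 5.67% of all genes called higher). The new glue genes ng1 and ng2 of the salivary gland were higher by 1.76 and 1.62 on the log2 scale. They were the 2 calls among 15 glue genes (13.3%, beside 5.67% of all genes). The median of that list was 0.11 and turned to -0.27 under library totals.

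In lists made after the calls were seen, 4 of 5 genes that shape mitochondrial cristae were higher (80%, beside 5.67% of all genes). Among them was Chchd3, at 81.6 and 113 CPM against 55.4 and 46.2 CPM (log2 fold change 0.94, SE 0.21, adjusted p = 0.0528). Of 14 antioxidant enzyme genes 4 were higher (28.6%), including the mitochondrial enzymes Sod2 (0.98) and Prx3 (1.04). Long noncoding RNA genes had 9 higher and 6 lower calls among 1017 tested, a smaller share than the 6.7% of all genes. Of the 1017, only 38 reached a mean of 5 CPM and 407 had 3 counts or fewer in both libraries of a group. The part of these low levels in the smaller share was not tested. Among the lower calls lncRNA:CR32368 was at 4.55 and 3.45 CPM against 13.5 and 15.7 CPM, with 9.84 and 6.54 CPM in w (log2 fold change -1.86, SE 0.39, adjusted p = 0.0481).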
